A study of Mus musculus with 8 samples.

Results

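The genes described here encode ligands of the epidermal growth factor (EGF) family, their ErbB receptors and 1 intracellular inhibitor of those receptors. There were 10 of them among the 55414 genes of the count table, found by matching the table's Ensembl gene IDs to GENCODE mouse gene symbols: the 6 ligands Egf, Tgfa, Areg, Ereg, Hbegf and Btc, the 3 receptors Egfr, Erbb2 and Erbb3, and the inhibitor Errfi1. Measured values played no part in that match, although the list of genes was chosen with earlier results of these data known. All 8 libraries were read for each gene. The samples were Paneth cells, the antimicrobial granule cells at the base of small intestinal crypts, purified with a cell sorter from wild-type (WT) mice. A group of 4 libraries came from mice that had received PBS and a group of 4 from mice that had received tumor necrosis factor (TNF), and in both groups the small intestine was taken 3 hours after the injection. The study's methods describe C57BL/6J mice and 1 mouse per sorted sample. The labels used here give neither the age of the mice nor the dose of TNF, and none of the mice carried a transgene or a deletion according to the genotype label.

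EGF family ligands are made as membrane-spanning precursors and act on neighboring cells after a protease has cut their extracellular part free. Binding brings ErbB receptors together in pairs, their kinase domains phosphorylate each other's tails, and adaptor proteins then start the RAS-ERK and PI3K pathways. Erbb2 binds no ligand of its own and Erbb3 has a very weak kinase, so both work as partners of another receptor. In the crypt, Paneth cells sit between Lgr5+ stem cells, and Egf is among the factors that they are known to supply to those neighbors. Cultures of intestinal organoids are commonly fed with EGF.

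The promoters of 4 tested members are shown because each holds a match to a motif that is known to be bound by the AP-1 or the CREB/ATF family of transcription factors, both of which respond to stimulation of cells. Each runs from 250 bases before to 50 bases after the start of the gene's canonical transcript in GENCODE, 5′ to 3′ on the gene's own strand, in GRCm39. For Erbb3 and Errfi1 other annotated transcripts start farther upstream, so these windows lie within the span of the gene. Tgfa lies on the plus strand (chr6:86171791-86172090), Areg on the plus strand (chr5:91287201-91287500), Erbb3 on the minus strand (chr10:128425487-128425786) and Errfi1 on the plus strand (chr4:150939272-150939571). Capitals mark TGANTCA (AP-1) in Tgfa and Erbb3 and TGACGTCA (the cAMP response element, CRE) in Areg and Errfi1, and no capital stretch matched both motifs.
Tgfa: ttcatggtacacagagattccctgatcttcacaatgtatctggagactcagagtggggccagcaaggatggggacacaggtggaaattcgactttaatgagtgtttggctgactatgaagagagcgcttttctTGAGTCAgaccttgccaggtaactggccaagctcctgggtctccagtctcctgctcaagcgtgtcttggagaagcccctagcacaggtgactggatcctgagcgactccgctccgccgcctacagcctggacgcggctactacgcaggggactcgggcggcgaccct
Areg: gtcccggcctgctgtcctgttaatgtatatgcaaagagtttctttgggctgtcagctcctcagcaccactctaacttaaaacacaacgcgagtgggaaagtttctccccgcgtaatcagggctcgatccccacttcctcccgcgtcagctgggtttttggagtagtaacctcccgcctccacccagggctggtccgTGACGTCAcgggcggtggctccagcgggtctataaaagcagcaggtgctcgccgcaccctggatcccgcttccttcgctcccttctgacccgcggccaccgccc
Erbb3: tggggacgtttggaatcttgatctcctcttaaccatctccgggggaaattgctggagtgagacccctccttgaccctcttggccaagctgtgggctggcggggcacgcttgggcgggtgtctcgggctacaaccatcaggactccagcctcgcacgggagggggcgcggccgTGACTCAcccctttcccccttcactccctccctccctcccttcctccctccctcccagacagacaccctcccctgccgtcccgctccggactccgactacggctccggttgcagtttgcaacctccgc
Errfi1: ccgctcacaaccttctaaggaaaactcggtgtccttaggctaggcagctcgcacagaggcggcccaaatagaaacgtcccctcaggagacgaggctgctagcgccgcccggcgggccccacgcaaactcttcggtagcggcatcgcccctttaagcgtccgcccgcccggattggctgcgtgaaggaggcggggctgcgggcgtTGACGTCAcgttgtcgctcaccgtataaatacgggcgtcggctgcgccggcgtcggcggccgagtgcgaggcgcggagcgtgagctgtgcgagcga

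The CRE match lay 54 bases upstream of the canonical start of Areg and 46 bases upstream of that of Errfi1, counted to its first base. On either strand, 2.44% of 21770 promoters of protein-coding genes of the same length held that motif and 7.14% held TGANTCA. The AP-1 match lay 117 bases upstream of the canonical start in Tgfa and 78 bases in Erbb3, and Ereg, which was not tested, had a match 215 bases upstream. A GC box (GGGCGG) was present in 42.5% of all promoters and in those of Tgfa, Areg, Hbegf, Egfr, Erbb3 and Errfi1. No member's window held a match to the NF-kB motif (8.97% of all promoters) or the CArG box (1.54%). The windows of Egf, Btc and Erbb2 held none of the motifs searched. A match describes the letters only.

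Libraries held 23824717 to 32576077 counts. The normalization factors calculated by edgeR lay between 0.995 and 1.36 in 7 libraries and at 0.448 in TNF replicate 4, in which α-defensin (Defa) genes took 51.4% of the counts against 32.0% to 37.9% elsewhere, so each member that this library decides is also given without it. Lyz1, which encodes the Paneth cell lysozyme, averaged 141589 ± 24820 normalized CPM (counts scaled per 1e+06 after the normalization factors) after PBS and 229334 ± 150267 after TNF (SD, n = 4 each). Nfkbia, an NF-kB target, rose from 23.6 ± 2.63 to 344 ± 33.9 normalized CPM (log2 fold change 3.86, edgeR adjusted p = 9.34e-08). Markers of other cells were also detected, with goblet sums of 2868 to 6624 and stem cell sums of 1312 to 2351 normalized CPM, and are described after the pathway genes. In sorted bulk RNA, fewer cells of a type and less RNA per cell cannot be told apart.

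In Paneth cells of PBS-injected mice, Erbb3 was the highest of the 10 genes per length of transcript. It averaged 15.2 ± 1.69 normalized CPM per kilobase of exon (SD, n = 4), which was above 94.2% of all tested genes. Erbb2 followed with 4.56 ± 0.309 and Egf, the highest ligand, with 3.34 ± 0.285 normalized CPM per kilobase. These 3 genes did not overlap each other in any library of the group. Tgfa with 1.65 ± 0.245 and Errfi1 with 1.54 ± 0.262 overlapped, and Egfr lay below them at 1.16 ± 0.0866, all on the same scale. Btc was lower again with 0.453 ± 0.0660 normalized CPM per kilobase. Hbegf (0.0665 ± 0.0209) and Areg (0.0490 ± 0.0168) overlapped near the bottom of the range, and Ereg had 0.0153 ± 0.0112 normalized CPM per kilobase. The place of Egf depends on the length used, since its merged exons (12225 bases) are longer than its longest annotated transcript (5711 bases): with the transcript length, Egf at 7.15 stood above Erbb2 at 4.84 normalized CPM per kilobase.

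After TNF the order was compressed. Erbb3 remained the highest, with 9.39 ± 0.930 normalized CPM per kilobase (SD, n = 4), and did not overlap its neighbor Errfi1 (3.43 ± 1.38). From Errfi1 downward, every neighboring pair overlapped as far as Hbegf. The levels in between were 2.46 ± 0.310 for Egfr, 2.37 ± 0.617 for Egf, 2.13 ± 0.583 for Tgfa, 2.01 ± 0.217 for Erbb2, 1.91 ± 0.355 for Btc, 1.79 ± 0.803 for Areg and 1.03 ± 0.135 for Hbegf. Ereg stayed apart at the bottom with 0.0559 ± 0.0262 normalized CPM per kilobase. The place of Egf depended on the length used here too. With the longest transcript length its mean was 5.07, above those of Errfi1 (3.81, overlapping), Tgfa (3.08) and Egfr (2.78).

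**Figure D1:**
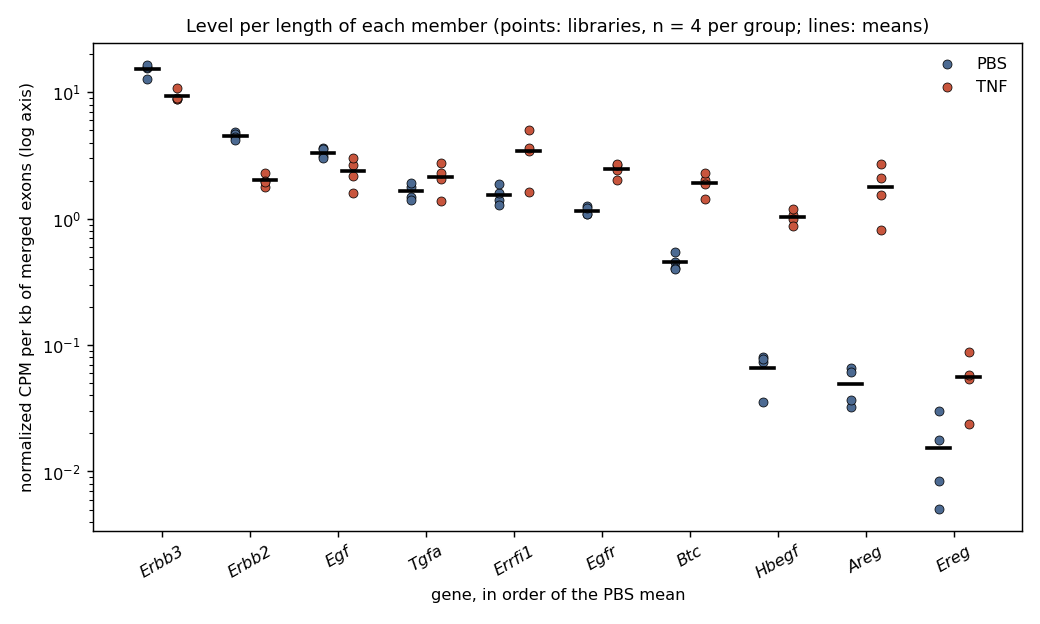
Normalized CPM per kilobase of merged exon on a log axis for the 10 genes, with 1 point per library for PBS and TNF and a line at the mean of each group (n = 4). Erbb3 is at the top in both groups, and the distance between Egf and the lowest tested ligands, Hbegf and Areg, is much smaller after TNF.

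The question of the design was what changes in Paneth cells 3 hours after TNF. Of the 10 genes, 9 passed the filter on low counts, and Areg (0 of 4 PBS libraries past the minimum) and Hbegf (3 of 4) passed it only through the TNF libraries. Called at an edgeR adjusted p under 0.05 over all 13368 tested genes, 5 members were higher after TNF (Areg, Hbegf, Btc, Egfr and Errfi1), 3 were lower (Egf, Erbb2 and Erbb3) and Tgfa was not called. Changes were common in this experiment: 43.0% of all tested genes were called, 23.4% higher and 19.6% lower, and the groups did not overlap in 42.1%. The median log2 fold change was 1.08 over the 9 members, Areg and Hbegf included, and 0.03 over all tested genes, which describes the members and is no test of them. With Areg and Hbegf left out, the median was the value of Tgfa, 0.37. Scaling by library size alone lowered the median of all genes by 0.40 and turned the split of calls from 3122 higher and 2625 lower to 757 higher and 2425 lower, so the members are also given relative to that shift where their call was lost. None of the 9 tested members changed its direction under the alternatives in which it was tested.

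Amphiregulin (Areg, ENSMUSG00000029378, chromosome 5, 91287451 to 91296291, plus strand), a ligand of Egfr that is known from epithelial repair, had 3, 2, 1 and 2 counts in the PBS libraries and 28, 74, 94 and 22 counts in the TNF libraries. On the normalized scale these were 0.0804, 0.0744, 0.0394 and 0.0453 CPM after PBS and 0.994, 2.56, 3.30 and 1.89 CPM after TNF. Each TNF library was far above all PBS libraries, although the TNF libraries differed among themselves by a factor of more than 3. The ratio of the summed counts, corrected for library size, was 37.5 with a 95% counting interval from 18.7 to 88.0. The fitted log2 fold change was 5.10 ± 0.50 (SE, edgeR adjusted p = 1.84e-05). It depends on the few PBS counts, and since Areg entered the test through its TNF libraries alone, the call is given as a description.

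Heparin-binding EGF-like growth factor (Hbegf, ENSMUSG00000024486, chromosome 18, 36637980 to 36649677, minus strand) binds Egfr and is known as an early response gene. It had 14, 11, 10 and 8 counts after PBS and 153, 146, 127 and 71 after TNF. Its normalized CPM were 0.375, 0.409, 0.394 and 0.181 in the PBS libraries and 5.43, 5.05, 4.46 and 6.10 in the TNF libraries. The TNF libraries lay close together and the groups were well apart. The fitted difference was 15.7-fold (log2 fold change 3.97 ± 0.26 SE, edgeR adjusted p = 1.42e-06), and since Hbegf entered the test through its TNF libraries, its call is given as a description too.

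Betacellulin (Btc, ENSMUSG00000082361, chromosome 5, 91505120 to 91550883, minus strand) is another ligand of Egfr. Its normalized CPM were 2.06, 1.86, 2.48 and 1.83 after PBS and 6.53, 9.20, 8.60 and 10.4 after TNF. All TNF libraries were above all PBS libraries by a wide margin. Btc rose 4.20-fold (log2 fold change 2.07 ± 0.18 SE, edgeR adjusted p = 9.78e-06). Btc was called under all 15 alternatives.

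Egf itself (ENSMUSG00000028017, chromosome 3, 129470410 to 129549093, minus strand) went the other way. Its normalized CPM were 38.6, 44.3, 43.3 and 37.2 in the PBS libraries and 32.3, 26.6, 37.2 and 19.7 in the TNF libraries. The highest TNF library reached the lowest PBS library to within the rounding, and TNF replicate 4 was the lowest of all. Egf fell 1.41-fold, from 40.9 ± 3.49 to 28.9 ± 7.54 normalized CPM (SD, n = 4 each; log2 fold change −0.49 ± 0.18 SE, edgeR adjusted p = 0.0429). The call was lost without PBS replicate 1 (−0.54, adjusted p = 0.0776), 2 (−0.45, 0.101), 3 (−0.47, 0.0953) or 4 (−0.56, 0.0548) and without TNF replicate 1 (−0.56, 0.0644) or 2 (−0.48, 0.116), and held without TNF replicate 4 (−0.34, 0.0406), all by edgeR. Library size alone gave −0.79 (edgeR adjusted p = 0.138), or −0.39 relative to the shift of all genes. Part of the Egf locus is covered on the other strand by the noncoding gene Gm42697, which had 1039 counts in all against 8344 for Egf and a log2 fold change of −0.48 (edgeR adjusted p = 0.235).

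Transforming growth factor alpha (Tgfa, ENSMUSG00000029999, chromosome 6, 86172041 to 86252728, plus strand), the classical second ligand of Egfr, had 10.2, 9.63, 12.2 and 13.2 normalized CPM after PBS and 14.0, 15.7, 19.0 and 9.45 after TNF. In 3 TNF libraries it was above all PBS libraries, and in TNF replicate 4 below all of them. Its log2 fold change of 0.37 ± 0.20 (SE) did not pass the test (edgeR adjusted p = 0.152). Without TNF replicate 4 the log2 fold change was 0.54 ± 0.14 with an adjusted p of 0.00927.

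Epiregulin (Ereg, chromosome 5, 91222157 to 91241505, plus strand) was near the limit of detection, with 5, 1, 2 and 1 counts after PBS and 11, 7, 3 and 3 after TNF. These counts were too low for the filter, and the groups overlapped. The ratio of the summed counts was 3.67 with a 95% counting interval from 1.65 to 8.97, which covers counting error only. With the filter lifted, edgeR gave a log2 fold change of 1.77 ± 0.80 (SE) and an adjusted p of 0.111.

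**Figure D2:**
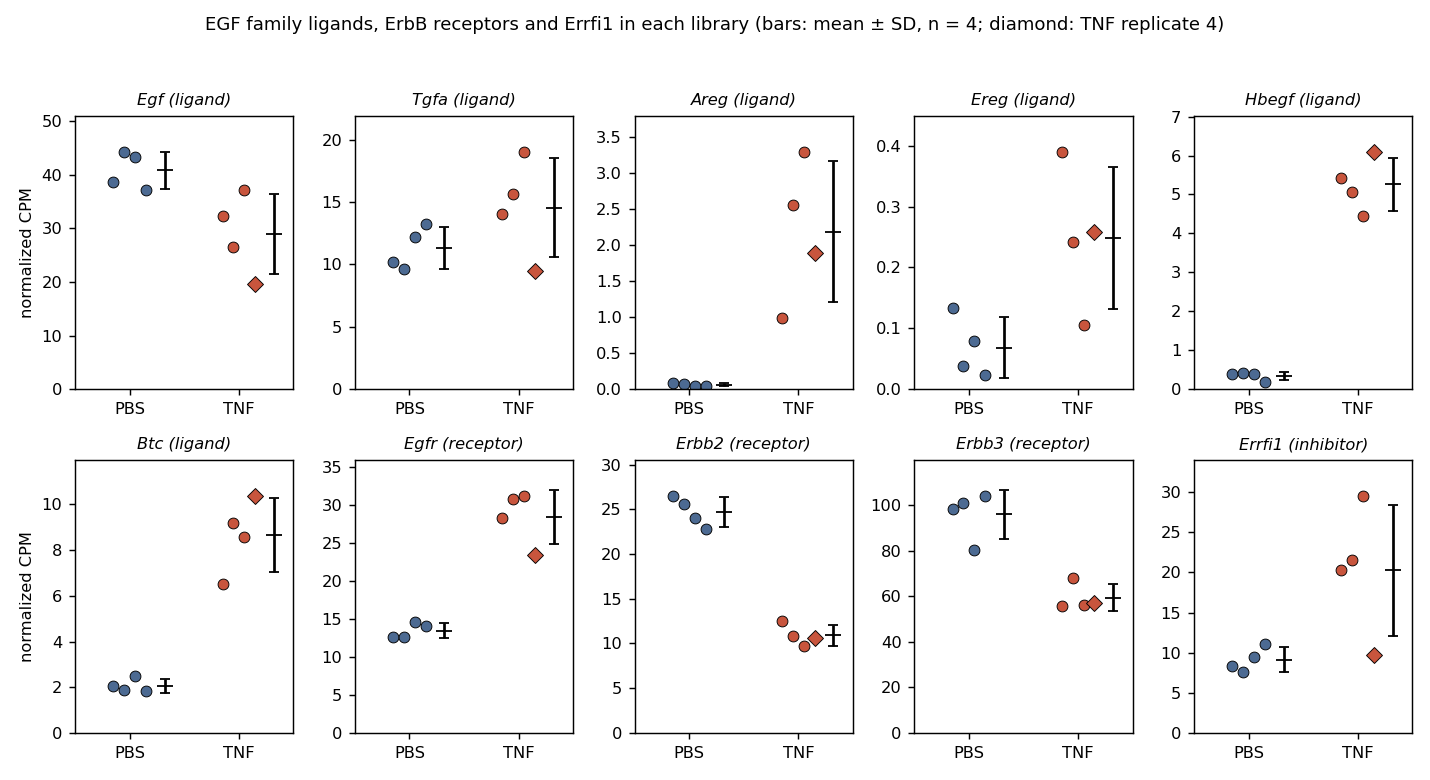
Normalized CPM of each of the 10 genes, 1 panel per gene on a linear axis from 0, with 1 point per library, a diamond for TNF replicate 4 and bars for the mean ± SD of each group (n = 4). The groups are apart for Areg, Hbegf, Btc, Egfr, Erbb2 and Erbb3, touch for Egf, and overlap for Tgfa and Errfi1 because of TNF replicate 4 and for Ereg at a few counts.

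Among the receptors, Egfr rose while Erbb2 and Erbb3 fell. Egfr (ENSMUSG00000020122, chromosome 11, 16702198 to 16868158, plus strand), the receptor of all 6 ligands, had 12.6, 12.6, 14.5 and 14.0 normalized CPM after PBS and 28.2, 30.7, 31.2 and 23.4 after TNF. The lowest TNF library, replicate 4, was still far above the highest PBS library. Egfr rose 2.12-fold (log2 fold change 1.08 ± 0.12 SE, edgeR adjusted p = 5.45e-05). Under library size alone the log2 fold change was 0.73 with an adjusted p of 0.135, and it was 1.13 relative to the shift of all genes. The noncoding gene Eldr on the opposite strand of the locus fell (log2 fold change −1.07, edgeR adjusted p = 0.00903) and had 199 counts in all against 4639 for Egfr.

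Erbb2 (ENSMUSG00000062312, chromosome 11, 98303203 to 98328542, plus strand) had 26.5, 25.5, 24.0 and 22.7 normalized CPM in the PBS libraries and 12.5, 10.9, 9.72 and 10.6 in the TNF libraries. Both groups were tight and lay apart. Erbb2 fell 2.26-fold (log2 fold change −1.18 ± 0.12 SE, edgeR adjusted p = 2.15e-05). Erbb3 (ENSMUSG00000018166, chromosome 10, 128403392 to 128425811, minus strand), which signals mainly through PI3K as a partner of Erbb2, had 98.3, 100.8, 80.3 and 104 normalized CPM after PBS and 55.7, 68.0, 56.1 and 57.1 after TNF. Again no TNF library reached the PBS range. Erbb3 fell 1.62-fold (log2 fold change −0.69 ± 0.12 SE, edgeR adjusted p = 0.00115). Erbb2 and Erbb3 were called lower under every alternative, with log2 fold changes between −1.55 and −1.12 for Erbb2 and between −1.09 and −0.66 for Erbb3.

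Errfi1 (ENSMUSG00000028967, chromosome 4, 150938376 to 150955402, plus strand), also called Mig6, encodes an inhibitor that binds the kinase domain of ErbB receptors and is known as a feedback gene of the pathway. Its normalized CPM were 8.28, 7.58, 9.46 and 11.1 after PBS and 20.3, 21.6, 29.6 and 9.70 after TNF. In 3 TNF libraries the level was well above all PBS libraries, whereas TNF replicate 4 lay within the PBS range. Errfi1 rose 2.24-fold (log2 fold change 1.16 ± 0.27 SE, edgeR adjusted p = 0.00566). Without TNF replicate 4 it was 1.40 ± 0.16 with an adjusted p of 3.14e-05. Under library size alone it was 0.87 with an adjusted p of 0.168, or 1.28 relative to the shift of all genes.

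Shares within a library do not depend on the scaling between libraries, so the makeup of the ligand and receptor transcripts was compared on that basis, per kilobase of exon and as a description. Egf made up 59.9% ± 3.74 (SD, n = 4) of the summed level of the 6 ligands after PBS and 25.5% ± 5.56 after TNF. The share of Tgfa was 29.7% ± 4.28 and 22.7% ± 3.78. Thus these 2 ligands supplied most of the sum after PBS and a smaller portion of it after TNF. Areg went from 0.888% ± 0.335 to 18.7% ± 6.09, Btc from 8.10% ± 0.888 to 20.9% ± 5.24 and Hbegf from 1.19% ± 0.365 to 11.5% ± 3.12. With the longest transcript length the PBS shares were 0.483% for Areg and 4.99% for Btc. Ereg reached at most 1.08% in any library. The ranges of the PBS and TNF libraries did not overlap for Egf (55.8% to 64.8% against 19.9% to 32.7%), Areg, Btc or Hbegf.

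Of the summed level of the 3 receptors, Erbb3 held 72.5% ± 2.60 after PBS and 67.7% ± 2.35 after TNF, Erbb2 21.9% ± 2.07 and 14.6% ± 1.83, and Egfr 5.60% ± 0.856 and 17.7% ± 1.92 (SD, n = 4 each). Erbb3 transcripts were therefore the majority in both groups, with overlapping ranges. The ratio of Egfr to Erbb2 per kilobase lay between 0.223 and 0.289 in the PBS libraries and between 1.04 and 1.51 in the TNF libraries. The ratio of Egf to Hbegf was 43.1 to 85.9 after PBS and 1.35 to 3.49 after TNF. For Errfi1 to Egfr, in contrast, the ratio was 1.32 ± 0.161 after PBS and 1.36 ± 0.426 after TNF, with 0.811 in TNF replicate 4.

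**Figure D3:**
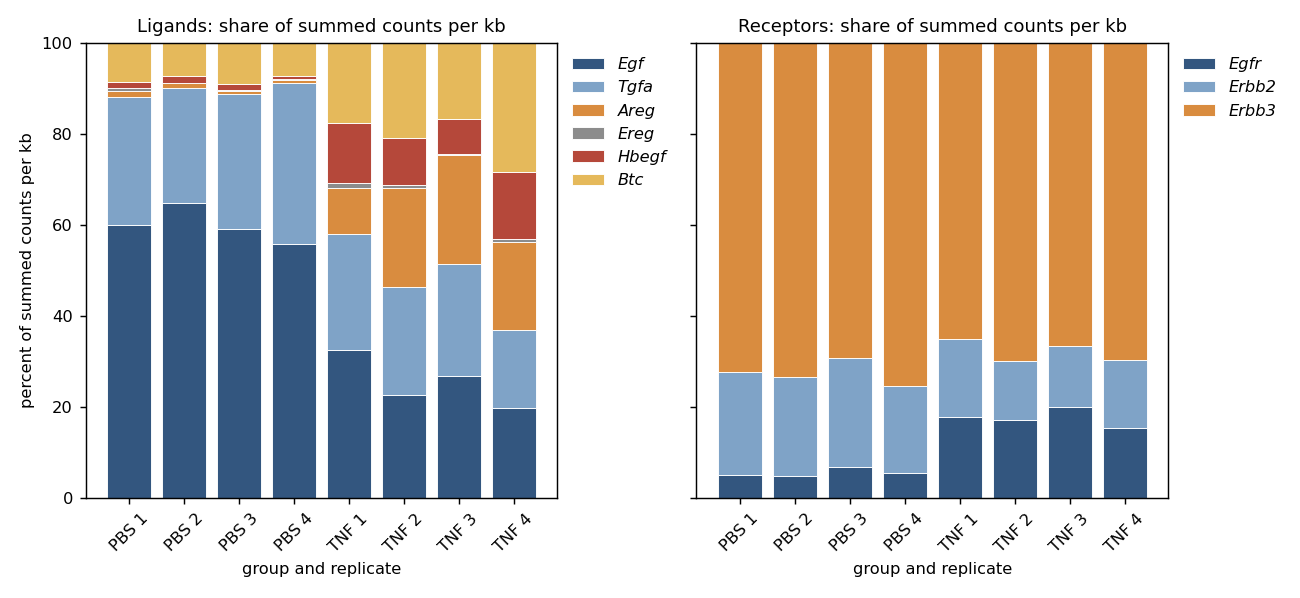
Percent of the summed counts per kilobase of the 6 ligands (one panel) and of the 3 receptors (other panel) in each of the 8 libraries, as stacked bars from 0 to 100. Egf takes 55.8% to 64.8% of the ligand sum in the PBS libraries and 19.9% to 32.7% in the TNF libraries, and the Egfr portion is larger in all TNF libraries.

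Areg, Ereg and Btc are neighbors on chromosome 5, together with Epgn (epigen), a further ligand of Egfr. The stretch from the start of Epgn to the end of Btc spans 376 kb (91175323 to 91550883) and holds 7 annotated genes, of which these 4 are protein-coding. Only Areg and Btc had enough counts to be tested, and both rose. Epgn had 0, 1, 0 and 2 counts after PBS and 1, 0, 6 and 2 after TNF. The noncoding Gm19619, between Areg and Btc, had 10 counts in all.

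The remaining family members gave little signal. Nrg1, Nrg2, Nrg3 and Erbb4, the neuregulin ligands and the fourth ErbB receptor, had 0 counts in all 8 libraries, where 3 counts would equal 0.0679 to 0.258 normalized CPM. The table holds 2 gene IDs with the symbol Nrg1, and both were at 0. Nrg4 (ENSMUSG00000032311), a ligand of Erbb4, was the only neuregulin present, with 4.22 ± 0.431 normalized CPM after PBS and 3.25 ± 0.635 after TNF (SD, n = 4 each; log2 fold change −0.39 ± 0.18 SE, edgeR adjusted p = 0.102). Without TNF replicate 4 its log2 fold change was −0.47 with an adjusted p of 0.0384.

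All 6 genes listed for ligand shedding, the step that frees the ligands from the membrane, were called higher, and in all 6 the groups did not overlap (median log2 fold change 1.13). The background shares were 23.4% called higher and 42.1% without overlap. Rhbdf2 (iRhom2), which carries the protease ADAM17 to the cell surface, rose from 10.4 ± 0.676 to 36.3 ± 5.39 normalized CPM (log2 fold change 1.81 ± 0.13 SE, edgeR adjusted p = 2.45e-06). Rhbdf1 (iRhom1), its paralog, rose from 6.71 ± 1.05 to 17.5 ± 1.52 (1.37 ± 0.14, adjusted p = 2.51e-05 by edgeR). Rhbdl2, a rhomboid protease of the plasma membrane, rose from 0.635 ± 0.103 to 3.11 ± 1.25 (2.24 ± 0.32, adjusted p = 0.000245 by edgeR). The metalloproteases themselves moved less, with log2 fold changes of 0.88 for Adam10, 0.68 for Adam9 and 0.43 for Adam17. Under library size alone the 3 rhomboid family genes kept their call, while Adam10 (0.53), Adam9 (0.32) and Adam17 (0.06) lost it on a scale on which the median of all genes was lower by 0.40. Adam17 also lost it without the filter and when PBS replicate 1 or 4 or either of TNF replicates 1 and 2 was left out.

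The 17 genes that relay the signal from the receptor to ERK and PI3K went both ways: 5 were called higher, 3 lower and 9 were not called, with a median log2 fold change of −0.06. The 47.1% called is near the 43.0% of all tested genes. Gab1, a docking protein that recruits PI3K to activated receptors, fell from 16.2 ± 1.38 to 4.76 ± 0.954 normalized CPM (log2 fold change −1.77 ± 0.16 SE, edgeR adjusted p = 1.03e-05). Pik3r1, the p85α regulatory subunit of PI3K, fell from 50.8 ± 8.62 to 18.5 ± 1.60 (−1.46 ± 0.14, adjusted p = 1.53e-05 by edgeR). The GTPase gene Nras rose from 21.9 ± 1.10 to 38.3 ± 2.73 (0.81 ± 0.10, adjusted p = 0.000105 by edgeR). Shc1 (0.77), Map2k1 (0.39) and Grb2 (0.34) were also called higher, and Mapk3 (−0.33) was the other one called lower, a call that it kept under 6 of 15 alternatives. The number called higher was 3 without PBS replicate 1, TNF replicate 1 or TNF replicate 2, and 0 under library size alone. Grb2 was at −0.04 there, a turn smaller than the shift of all genes under that scaling.

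Of the 13 genes for feedback and receptor degradation, 5 were called higher, 2 lower and 6 were not called (median log2 fold change 0.27), that is 53.8% called beside 43.0% of all tested genes. Spry4, a Sprouty inhibitor of the RAS-ERK pathway, had 1, 1, 2 and 2 counts after PBS and 42, 51, 56 and 11 after TNF, a ratio of 36.7 with a 95% counting interval from 16.5 to 102 (log2 fold change 5.0 ± 0.42 SE, edgeR adjusted p = 6.88e-06). Like Areg, it passed the filter through the TNF libraries alone, so its call, 1 of the 5 higher, is given as a description. Spred2 rose from 15.0 ± 1.07 to 33.0 ± 9.38 normalized CPM (1.14 ± 0.19, adjusted p = 0.000835 by edgeR) and Spry1 from 2.36 ± 0.141 to 4.30 ± 0.738 (0.87 ± 0.17, adjusted p = 0.00209 by edgeR). Lrig1 (−0.51), which restrains ErbB receptors in intestinal stem cells, and Rnf41 (−0.52), a ubiquitin ligase for Erbb3, were called lower. Cbl (0.73), the ubiquitin ligase of Egfr, and Spred1 (0.45) were called higher, and Spred1 kept its call under 5 of 15 alternatives.

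Among 12 genes known as transcriptional targets of ERK, 7 were called higher, 3 lower and 2 were not called (median log2 fold change 0.89), beside 23.4% called higher and 19.6% lower among all tested genes. Of the 7, Fosl1 passed the filter through the TNF libraries alone, so its call is given as a description. Ier3 rose from 1.19 ± 0.121 to 17.8 ± 2.23 normalized CPM (log2 fold change 3.91 ± 0.16 SE, edgeR adjusted p = 1.03e-07). Etv4, an ETS transcription factor, rose from 0.659 ± 0.0821 to 4.93 ± 0.805 (2.90 ± 0.21, adjusted p = 2.27e-06 by edgeR), and Klf6 from 26.5 ± 4.25 to 100.3 ± 25.2 (1.92 ± 0.19, adjusted p = 1.96e-05 by edgeR). Etv5 (−1.09), Dusp6 (−0.81) and Phlda1 (−0.61) were called lower. Dusp6 encodes an ERK phosphatase. Phlda1 kept its call under 11 of 15 alternatives, losing it with library size alone and when PBS replicate 1, PBS replicate 4 or TNF replicate 1 was left out. Fos (0.58) and Ccnd1 (−0.13) did not pass the test. Ier3 is known as a target of NF-kB too.

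Egf and Erbb3 were the ligand and the receptor with the highest mean level per kilobase of merged exon over the 8 libraries. On that scale Tgfa was above Egf in TNF replicate 2 and Btc was above Egf in TNF replicate 4. With the longest transcript length Egf was above both in these libraries. Across these libraries, the genes most similar to Egf in log2 CPM among 8489 genes were Tcaf2 (Pearson r = 0.975), Galc (0.971) and Tox (0.968), and those most similar to Erbb3 were Parp16 (0.980), Ankrd46 (0.977) and Rnf103 (0.973). The 8 points of each correlation share the library, its depth and the split into PBS and TNF, so these values are given as a description.

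Several marker sums moved with the groups or with TNF replicate 4. The marker calls stand beside 23.4% called higher and 19.6% called lower among all tested genes. The 5 stem cell markers summed to 1454 to 2351 normalized CPM after PBS and 1312 to 1855 after TNF, and 4 of the 5 were called lower, Lgr5 among them. Olfm4, which was not called, made up most of that sum, with 1235 to 2095 normalized CPM after PBS and 1192 to 1716 after TNF. Enteroendocrine markers went from 11.2 to 13.8 up to 31.0 to 60.1, with 3 of 4 tested genes called higher. Goblet markers summed to 2868 to 4865 after PBS and 4797 to 6624 after TNF, with 1 of 4 called higher and 2 lower. The gene called higher was Muc2, with 1516 to 2599 normalized CPM after PBS and 2721 to 5875 after TNF. Fcgbp was called lower, with 550.8 to 1129 after PBS and 150 to 323 after TNF. Of the genes called lower, Clca1 stood out in PBS replicate 1, which had 553.6 normalized CPM against 41.1 to 44.0 in the other PBS libraries and 24.0 to 42.2 after TNF. In TNF replicate 4, whose normalization factor was 0.448, the Paneth sum reached 1031286 against 270017 to 394994 in the PBS libraries. Enterocyte sums were 27.6 to 40.1 after PBS, 15.2 to 19.5 in 3 TNF libraries and 59.8 in TNF replicate 4, and 1 of the 6 genes, Apoa4, was called lower (log2 fold change −3.94, edgeR adjusted p = 0.00112). Apoa4 had 22, 42, 82 and 56 counts after PBS and 7, 1, 1 and 1 after TNF. It passed the filter through the PBS libraries alone, so its call is given as a description. Tuft sums were 11.9 to 27.3 after PBS, 7.58 to 14.7 in the same 3 TNF libraries and 52.9 in TNF replicate 4, with no gene called. Immune sums were 0.744 to 1.06 after PBS and 1.14 to 4.12 after TNF, and stroma sums 0.260 to 0.453 and 1.23 to 1.70. The 1 tested gene of each of these lists, Cd52 and Vim, was called higher (log2 fold changes 1.69 and 2.05, edgeR adjusted p = 0.0118 and 0.00092). Vim had 11, 3, 7 and 18 counts after PBS and 38, 38, 32 and 10 after TNF. Vim entered the test through its TNF libraries, so its call is given as a description. The leukocyte marker Ptprc, which was not tested, had 10, 3, 10 and 5 counts after PBS and 1, 0, 1 and 9 after TNF, and Cd68, not tested either, averaged 0.142 and 0.149 normalized CPM. Both sums were higher in every TNF library than in any PBS library, with Cd3e, Adgre1, Cpa3, Col1a2 and Col3a1 at 0 in all libraries. Cycling markers gave 105.5 to 144 after PBS and 60.1 to 112 after TNF, and 1 of the 4, Birc5, was called lower (log2 fold change −0.58, edgeR adjusted p = 0.0179). The part of these cells in the changes of the ligands and receptors was not tested.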

How the data were processed

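Sorted Paneth cells were lysed for RNA (Aurum Total RNA Mini kit), from which stranded mRNA libraries (TruSeq) were built. The authors deposited raw counts per gene as whole numbers for the 8 libraries. Their processing notes name FastQC 0.12, STAR 2.7.10a, DESeq2 and the build mm39. How reads were counted, with which strand setting and how reads with several matches were handled was not found in the labels or methods (not given in the sources used here), so near-identical copies and overlapping genes are uncertain. Gene symbols, positions and exon lengths were taken from GENCODE M39 (GRCm39), which gave 54749 of 55414 gene IDs a symbol, and promoter sequences from the GRCm39 genome.

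Counts were normalized by TMM, filtered with filterByExpr and tested for TNF against PBS with edgeR 4.0.16 (quasi-likelihood F test; R 4.3.3), with no covariate. P-values were adjusted by Benjamini-Hochberg over all 13368 tested genes and genes were called at an adjusted p under 0.05. Normalized CPM are counts per 1e+06 after TMM. Fold changes are TNF over PBS, and the SE was the absolute log2 fold change divided by the square root of F. Alternatives were RLE scaling, library size alone, DESeq2 1.42.0, limma-voom (limma 3.58.1), a filter of 1 CPM in 4 libraries or no filter beyond 1 count, a replicate block and leaving out each library. The code was tested on simulated data. Depth was 23824717 to 32576077 counts per library, and counting intervals cover counting error only. No pair of libraries agreed within sampling noise. The members and the pathway and marker lists were chosen with earlier results of these data known. The genes named were all members, the other family genes, the 3 smallest p-values of each other pathway list, the 3 genes most like the highest ligand and receptor (with a mean of at least 5 normalized CPM), Lyz1 and Nfkbia; further list genes are named to illustrate a count, and some listed genes are not reported here.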

Additional observations from a re-analysis of the deposited data

Results flagged for a closer look

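Each member's values within a group were examined for a library that stands far from the other 3, in 20 groups of 4 libraries. At the 95% level of this test chance alone would mark about 1 in 20 such groups, and 2 were marked. Hbegf in PBS replicate 4 had 0.181 normalized CPM (8 counts), whereas the other PBS libraries had 0.375 to 0.409. Erbb3 in TNF replicate 2 had 68.0 normalized CPM, whereas the other TNF libraries had 55.7 to 57.1. In both genes the PBS and TNF libraries still did not overlap.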

How the results depend on the processing

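Btc, Erbb2 and Erbb3 were called under all 15 alternatives. Library size alone moved more results than any other setting: 3182 genes were called, Egf (−0.79), Egfr (0.73) and Errfi1 (0.87) lost their calls, as did Nras (0.42), Spred2 (0.83) and Spry1 (0.52), and the genes called were 3 for shedding, 0 higher for relay, and 1 higher and 1 lower for feedback. Without the filter, 3 relay genes were called higher. Leaving out 1 library gave log2 fold changes of −0.63 to −0.34 for Egf and 0.22 to 0.54 for Tgfa, 3 to 6 relay genes called higher, and 0 to 1 other family gene called lower, the latter Nrg4 without TNF replicate 4 (−0.47). With the length of the longest transcript, the shares after PBS were 69.8% for Egf, 23.4% for Tgfa, 4.99% for Btc and 0.483% for Areg, and after TNF 36.0% for Egf and 12.5% for Areg. The cause of these shifts was not tested.

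The replicate numbers of PBS and TNF libraries gave correlations of −0.14 to 0.07 between libraries of the same number, and not every library correlated best with its own number. The libraries were therefore treated as unpaired. With so few libraries per group, these correlations cannot exclude that equal numbers share a batch. With the replicate block, 5087 genes were called against 5747 without it, and no member's call changed. At these depths, genes with a few counts such as Ereg and Epgn did not pass the filter. The labels do not say that replicates were separate mice, while the study's methods describe samples from individual mice.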
